A study of Homo sapiens with 17 samples.

Results

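Adrenomedullin (ADM) and 9 further genes known for their response to low oxygen were followed in newly made RNA of the SNU-761 line, which was established from a human liver carcinoma. The 10 genes were picked by Ensembl ID from the 19867 genes of the count table, and ADM was picked because it was higher with VT107 but not with intetumumab. The values of ADM against the controls are therefore a description, given with no test. ADM is ENSG00000148926. The other 9 genes, VEGFA (ENSG00000112715), SLC2A1 (ENSG00000117394), PDK1 (ENSG00000152256), CA9 (ENSG00000107159), EGLN3 (ENSG00000129521), BNIP3 (ENSG00000176171), DDIT4 (ENSG00000168209), NDRG1 (ENSG00000104419) and ANKRD37 (ENSG00000186352), accompany it as genes of the hypoxia response. The deposited table gives IDs with no gene names, and the pairing of these 10 IDs with symbols comes with the choice of genes.

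In cells with enough oxygen, prolyl hydroxylases such as EGLN3 mark the alpha subunits of the hypoxia-inducible factors (HIF) for destruction through VHL. When oxygen is low the factors persist, bind DNA at a short core motif and switch on genes for vessel growth, glucose uptake, glycolysis and acid export. Adrenomedullin is a secreted peptide that widens vessels and acts through the calcitonin receptor-like receptor, and its gene is also known to respond to signals other than low oxygen. HIF targets are commonly high in liver carcinoma, where they are studied for their part in vessel growth and in the use of glucose.

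All groups were SNU-761 cells labelled as wild type, and treated cells were collected at 4 h; the RNA label was thiouridine. VT107, a small molecule that inhibits all TEAD transcription factors, was given at 2.15 µM (2 libraries) and 0.1 µM (2 libraries), against DMSO (2 libraries). A biosimilar of intetumumab, which the labels call a monoclonal antibody to ITGAV and ITGB3, was given at 5 µg/ml (3 libraries) and 1.5 µg/ml (3 libraries), against an isotype IgG1 from human myeloma plasma (3 libraries at 5 µg/ml). Each of the 2 experiments also had 1 unlabelled library. No hypoxic sample is among the 17 libraries. In this assay (SLAM-seq) thiouridine that was built into RNA reads as C in place of T, so the counts stand for RNA made while the label was present. The labels do not tie replicates to different cultures, and the spread behind each p-value may be technical. In such bulk RNA, fewer cells making a transcript and less of it per cell cannot be told apart. Labelled libraries held 435343 to 1778876 counts, unlabelled ones 10702 and 4553. Levels are counts per 1e6 after TMM scaling (CPM), scaled within each experiment, and since libraries were made from 3′ ends they are not divided by length.

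The promoter of ADM is shown because the results turn on this gene, and those of PDK1 and CA9 because they hold the commoner form of the HIF core motif close to the start. Each sequence is the 250 bases before the gene's start in RefSeq (GRCh38.p14), written 5′ to 3′ on the gene's strand, with ACGTG and GCGTG in capitals on either strand (CACGT and CACGC are their reverse complements). They lie at chr11:10304823-10305072 (ADM, plus strand), chr2:172555840-172556089 (PDK1, plus strand) and chr9:35673678-35673927 (CA9, plus strand).
ADM: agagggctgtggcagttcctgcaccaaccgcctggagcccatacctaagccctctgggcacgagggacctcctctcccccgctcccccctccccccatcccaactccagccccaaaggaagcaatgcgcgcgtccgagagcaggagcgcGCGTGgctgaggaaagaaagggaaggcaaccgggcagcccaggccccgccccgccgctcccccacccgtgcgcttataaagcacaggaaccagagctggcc
PDK1: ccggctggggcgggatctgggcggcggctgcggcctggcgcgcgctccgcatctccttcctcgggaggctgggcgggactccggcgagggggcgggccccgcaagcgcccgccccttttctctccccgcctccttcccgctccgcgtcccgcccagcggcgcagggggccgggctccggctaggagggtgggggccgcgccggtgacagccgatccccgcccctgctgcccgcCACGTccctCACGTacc
CA9: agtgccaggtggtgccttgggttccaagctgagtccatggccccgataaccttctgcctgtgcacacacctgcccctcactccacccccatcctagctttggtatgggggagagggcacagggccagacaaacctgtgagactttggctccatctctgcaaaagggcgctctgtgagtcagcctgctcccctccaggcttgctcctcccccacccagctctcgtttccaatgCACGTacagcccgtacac
ADM held no ACGTG in this window and a single GCGTG that begins 101 bases before the start. PDK1 held ACGTG at 17 and 8 bases before its start, both reading as CACGT, and CA9 held it at 18 bases. Of the 10 genes, 8 matched the RefSeq table, with 9 windows since PDK1 has 2. ACGTG stood in 5 of these 9 windows (ANKRD37, BNIP3, CA9, DDIT4 and PDK1), against 18.5% of all 35116 windows of this length. GCGTG stood in 3 of them (ADM, BNIP3 and DDIT4), against 32.2% of all windows. In ANKRD37 and BNIP3 the motif forms the palindrome CACGTG, which reads as ACGTG on both strands. These are matches of letters, with no measurement of binding.

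The mean level of new adrenomedullin RNA was more than 2 times that of DMSO at both doses of VT107, and all 4 VT107 libraries stood above both DMSO libraries. ADM had 1210 and 1320 CPM at VT107 2.15 µM, 1170 and 961 CPM at 0.1 µM, and 404 and 561 CPM in DMSO. The lowest of the 4 VT107 libraries stood above the higher DMSO library by more than the gap between the DMSO libraries. The means were 1265 ± 77.7 CPM at 2.15 µM, 1065 ± 147.5 CPM at 0.1 µM and 482 ± 111 CPM in DMSO (SD, n = 2 each). The log2 fold change of ADM over DMSO was 1.39 (SE 0.21) at 2.15 µM, which is 2.62-fold. At 0.1 µM it was 1.14 (SE 0.21), which is 2.21-fold. Both rest on the same DMSO libraries. Without DMSO replicate 1, the lower one, the log2 fold change of ADM was 1.18 at 2.15 µM and 0.92 at 0.1 µM, and without DMSO replicate 2 it was 1.65 and 1.39.

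The counts behind these levels were large. ADM had 2237 and 1712 raw counts at 2.15 µM, 993 and 765 at 0.1 µM, and 376 and 580 in DMSO. By mean CPM over the VT107 experiment it stood at percentile 99.0 of the 10083 genes tested. Among the 102 genes with at least its mean CPM, ADM itself included, none had a larger log2 fold change than ADM at 2.15 µM or at 0.1 µM (0 genes), and the median of these genes was -0.28 and -0.18. This place rests on the values for which ADM was chosen. Its VT107 libraries also raised the mean CPM at which this set of genes was cut. Over all tested genes ADM ranked 468 from the top by log2 fold change at 2.15 µM and 776 at 0.1 µM.

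The 2 doses of VT107 were also compared directly, a contrast the choice of ADM did not use. The VT107 libraries themselves did enter that choice. ADM was 1.19-fold higher at 2.15 than at 0.1 µM (log2 fold change 0.25, 95% interval -0.22 to 0.72), and edgeR's adjusted p was 0.967. The groups did not overlap, which held for 39.1% of all tested genes in either direction (20.1% higher and 19.0% lower). The difference did not pass the test, and its interval also holds differences of either sign.

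With intetumumab the level of ADM stayed near that of its control. ADM had 396, 503 and 382 CPM at 5 µg/ml, 382, 458 and 401 CPM at 1.5 µg/ml, and 448, 450 and 432 CPM with the isotype. Libraries of all 3 groups overlapped. The means were 427 ± 66.3 CPM at 5 µg/ml, 413 ± 39.3 CPM at 1.5 µg/ml and 444 ± 10.1 CPM with the isotype (SD, n = 3 each). The log2 fold change over the isotype was -0.05 (SE 0.15) at 5 µg/ml and -0.10 (SE 0.15) at 1.5 µg/ml. Between the antibody doses, 5 over 1.5 µg/ml, it was 0.05 (95% interval -0.29 to 0.38, edgeR's adjusted p = 0.9915). The antibody libraries also entered the choice of ADM. Set side by side in 1 fit, the higher dose of VT107 moved ADM by 1.45 more on the log2 scale than the higher antibody dose did (SE 0.24), given with no test because ADM was chosen for it.

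**Figure D1:**
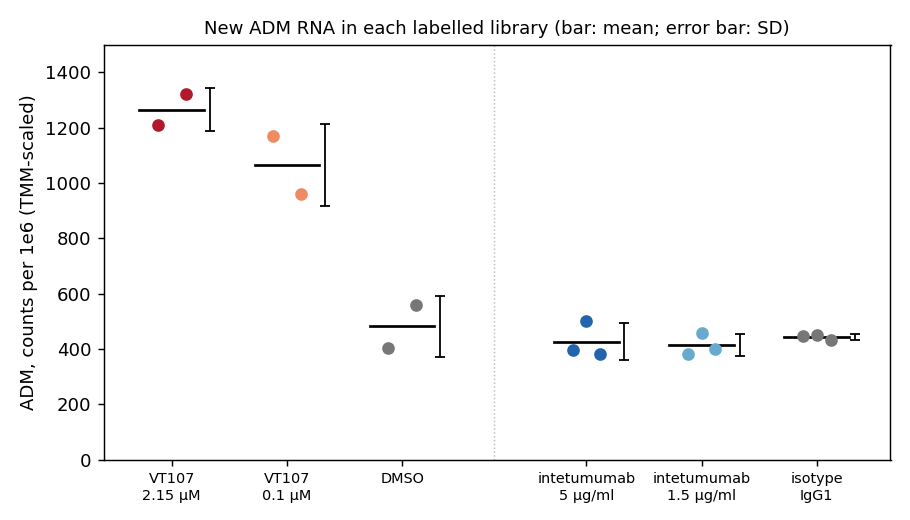
ADM in each of the 15 labelled libraries, in counts per 1e6 after TMM scaling within each experiment; points are libraries, horizontal bars are means and error bars are SDs (n = 2 per group left of the dotted line, n = 3 right of it). The 4 VT107 libraries sit between 961 and 1320, above both DMSO libraries at 404 and 561, while intetumumab and isotype libraries overlap.

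The share of ADM among the counts of the 10 genes needs no scaling between libraries. At the level of single libraries ADM made up 41.4% and 45.6% of these counts at VT107 2.15 µM, 41.5% and 34.3% at 0.1 µM, and 24.1% and 29.3% in DMSO. The widest exact binomial 95% interval of these 6 shares was 21.96% to 26.25% (DMSO replicate 1), and intervals cover counting error only, since copies of 1 molecule made by PCR are not independent. It made up 13.85%, 18.5% and 14.1% at intetumumab 5 µg/ml, 14.6%, 15.2% and 15.6% at 1.5 µg/ml, and 14.1%, 15.7% and 17.4% with the isotype. Set against VEGFA alone, there were 0.995 and 1.18 counts of ADM per count of VEGFA at 2.15 µM, 1.04 and 0.748 at 0.1 µM, and 0.536 and 0.612 in DMSO. Both VT107 groups lay above DMSO in the share of ADM and in its ratio to VEGFA, while the 2 doses overlapped in both measures. Since both measures use the counts for which ADM was chosen, they describe the same difference and give no separate support.

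**Figure D2:**
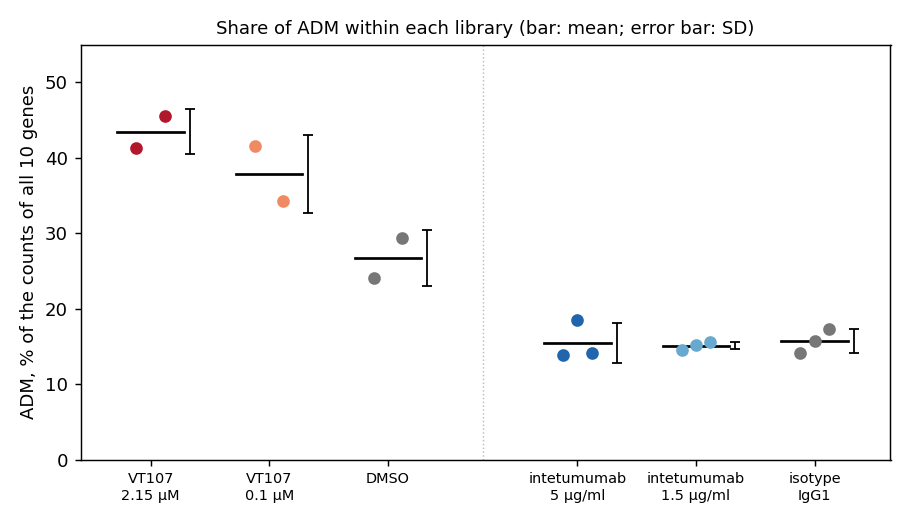
Share of ADM in the counts of all 10 genes, in percent, for each labelled library; points are libraries, horizontal bars are means and error bars are SDs (n = 2 per group left of the dotted line, n = 3 right of it). The VT107 libraries lie between 34.3% and 45.6%, and the DMSO libraries at 24.1% and 29.3%.

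None of the other hypoxia genes passed the test in any comparison (0 of 8 tested in each by edgeR, and 0 by DESeq2 among those it gave an adjusted p). ANKRD37, an ankyrin repeat gene induced by low oxygen, was removed by the filter on low counts in both experiments and was not tested. At VT107 2.15 µM, 6 of the 8 had a log2 fold change above 0, as had 51.7% of the 10083 genes tested, and their median was 0.39 against 0.03 over all genes. The share of all genes called there at an adjusted p under 0.05 was 0.109%. At 0.1 µM 7 of the 8 had a log2 fold change above 0 (50.7% of all genes), with a median of 0.50 against 0.01, and 0% of all genes were called. The median at 2.15 µM depended on single libraries: it was 0.16 without DMSO replicate 1 (7 of 8 above 0) and 0.46 without DMSO replicate 2 (5 of 8). It was 0.20 without VT107 2.15 µM replicate 1 (5 of 8) and 0.51 without VT107 2.15 µM replicate 2 (6 of 8). At 0.1 µM it was 0.42 without DMSO replicate 1 (8 of 8), 0.56 without DMSO replicate 2 (5 of 8), and 0.60 and 0.34 without replicates 1 and 2 of VT107 0.1 µM (6 and 5 of 8). The libraries did not overlap with DMSO in 4 of the 8 genes at 2.15 µM (3 higher and 1 lower), against 44.7% of all genes (24.1% higher and 20.6% lower). At 0.1 µM this held for 4 (all higher), against 39.7% of all genes (20.4% higher and 19.3% lower). Taken in either direction these counts were near the share seen over all genes, while at 0.1 µM all 4 were on the higher side.

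VEGFA, the main secreted growth factor for vessels, was the other gene of the set with counts as large as those of ADM. It had 1216 and 1120 CPM at VT107 2.15 µM, 1120 and 1285 CPM at 0.1 µM, and 752 and 916 CPM in DMSO. All 4 VT107 libraries stood above both DMSO libraries. The log2 fold change was 0.49 (SE 0.17, 95% interval 0.09 to 0.88, edgeR's adjusted p = 0.340) at 2.15 µM and 0.53 (SE 0.17, 95% interval 0.13 to 0.93, edgeR's adjusted p = 0.318) at 0.1 µM. VEGFA had the only unadjusted p under 0.05 among the 8 genes, at each dose (0.0230 and 0.0161), a level reached by 11.6% and 12.1% of all genes. With intetumumab VEGFA had 1788, 1473 and 1567 CPM at 5 µg/ml, 1507, 1767 and 1476 CPM at 1.5 µg/ml, and 1889, 1720 and 1319 CPM with the isotype. These libraries overlapped, with log2 fold changes of -0.03 and -0.05 (edgeR's adjusted p = 0.962 and 0.996). Between the higher doses of both agents the effects on VEGFA differed by 0.52 (SE 0.22, unadjusted p under 0.05, as for 9.06% of all genes, edgeR's adjusted p = 0.477).

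Genes of glucose use and acid export gave values of both signs, none of which passed the test. SLC2A1, the glucose transporter GLUT1, had 221 and 218 CPM at VT107 2.15 µM, 214 and 286 CPM at 0.1 µM, and 286 and 205 CPM in DMSO. These libraries overlapped at both doses, with log2 fold changes of -0.16 and 0.03. PDK1, a kinase that inhibits pyruvate dehydrogenase, had 79.5 and 67.9 CPM at 2.15 µM, 97.8 and 77.9 CPM at 0.1 µM, and 29.0 and 63.8 CPM in DMSO. PDK1 had a log2 fold change of 0.66 (SE 0.42, edgeR's adjusted p = 0.611) at 2.15 µM and of 0.91 (SE 0.42, edgeR's adjusted p = 0.442) at 0.1 µM. CA9, a carbonic anhydrase at the cell surface that helps to export acid, had 24.9 and 20.1 CPM at 2.15 µM, 25.9 and 22.6 CPM at 0.1 µM, and 8.59 and 21.3 CPM in DMSO. Its log2 fold change was 0.58 (SE 0.57, edgeR's adjusted p = 0.766) at 2.15 µM and 0.69 (SE 0.58, edgeR's adjusted p = 0.701) at 0.1 µM.

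EGLN3, a prolyl hydroxylase that is itself a HIF target and so part of the feedback on the pathway, had 21.1 and 11.6 CPM at VT107 2.15 µM, 21.2 and 22.6 CPM at 0.1 µM, and 6.44 and 15.5 CPM in DMSO. Its log2 fold changes were 0.57 (SE 0.66) and 0.98 (SE 0.67), with edgeR's adjusted p = 0.806 and 0.607. DMSO replicate 1 was low in all of PDK1, CA9 and EGLN3, where DMSO replicate 2 had 2.20, 2.48 and 2.40 times its CPM. With ADM (1.39 times) and VEGFA (1.22 times), DMSO replicate 2 was the higher in 5 genes of the set. DMSO replicate 2 was the lower in SLC2A1 (0.718 times), BNIP3 (0.97), DDIT4 (0.664), NDRG1 (0.6) and ANKRD37 (0), so DMSO replicate 1 was not low across the set. Over all tested genes DMSO replicate 2 was the higher of the pair in 50.6%. Without DMSO replicate 1 the log2 fold changes at 2.15 µM were 0.21 for PDK1, 0.09 for CA9 and 0.10 for EGLN3, and without DMSO replicate 2 they were 1.35, 1.38 and 1.34. At 0.1 µM they were 0.46, 0.19 and 0.50 without DMSO replicate 1, and 1.59, 1.48 and 1.74 without DMSO replicate 2. The values of these genes therefore rested on which DMSO library was used, with raw counts of 27, 8 and 6 in replicate 1 and 66, 22 and 16 in replicate 2.

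BNIP3, which marks mitochondria for removal, had 33.01 and 34.7 CPM at VT107 2.15 µM, 22.4 and 54.0 CPM at 0.1 µM, and 27.9 and 27.1 CPM in DMSO. Both libraries at 2.15 µM lay above both DMSO libraries, while the pair at 0.1 µM lay on both sides of DMSO. The log2 fold change of BNIP3 was 0.30 (SE 0.48, edgeR's adjusted p = 0.863) at 2.15 µM. At 0.1 µM it was 0.47 (SE 0.49, edgeR's adjusted p = 0.764). DDIT4, which restrains mTOR under stress, was the tested gene with the lowest log2 fold change at 2.15 µM; it stood at 58.4 and 60.2 CPM, with 88.3 and 59.0 CPM at 0.1 µM and 106 and 70.55 CPM in DMSO. Its log2 fold change was -0.57 (SE 0.36, edgeR's adjusted p = 0.610) at 2.15 µM and -0.26 (SE 0.36, edgeR's adjusted p = 0.838) at 0.1 µM. NDRG1, a gene strongly induced by low oxygen in many cell types, had 56.8 and 33.9 CPM at 2.15 µM, 49.5 and 35.2 CPM at 0.1 µM, and 51.5 and 30.9 CPM in DMSO. Its 3 groups overlapped, with log2 fold changes of 0.15 (95% interval -0.86 to 1.16) and 0.04 (95% interval -0.997 to 1.08). ANKRD37 had 8 and 11 raw counts at 2.15 µM, 6 and 1 at 0.1 µM, and 6 and 0 in DMSO, too few to compare.

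Direct comparison of the VT107 doses gave no call among the 8 genes (0% of all genes), and none had an unadjusted p under 0.05 (5.30% of all genes). Of the 8, 1 had a log2 fold change above 0 (49.2% of all genes). Their log2 fold changes, 2.15 over 0.1 µM, lay between -0.41 (EGLN3) and 0.11 (NDRG1), with a median of -0.18 against -0.01 over all genes, and edgeR's adjusted p was at least 0.987 for each. EGLN3, lower at 2.15 µM, was the only one of the 8 whose dose groups did not overlap, against 39.1% of all genes in either direction and 19.0% lower.

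With intetumumab the 8 genes lay on both sides of the isotype. At 5 µg/ml 4 had a log2 fold change above 0 (50.4% of all genes), with a median of 0.05 against 0.00 over all genes, and 0.0887% of all genes were called. None of the 8 had an unadjusted p under 0.05 at 5 µg/ml (9.23% of all genes) or at 1.5 µg/ml (5.47%). At 1.5 µg/ml 4 were above 0 (50.9% of all genes), with a median of -0.02 against 0.01, and 0% were called. Without isotype replicate 1, 6 of the 8 were above 0 at each dose. Without isotype replicate 2 it was 4 at each dose, and without isotype replicate 3 it was 4 at 5 µg/ml and 3 at 1.5 µg/ml. The libraries did not overlap with the isotype in 2 of the 8 genes at 5 µg/ml (1 higher and 1 lower, against 15.9% of all genes, 7.64% higher and 8.26% lower). At 1.5 µg/ml this held for 2 (both higher, against 12.3% of all genes, 5.62% higher and 6.72% lower).

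NDRG1 was above the isotype in every antibody library. It had 129, 124 and 145 CPM at 5 µg/ml, 139, 179.5 and 113 CPM at 1.5 µg/ml, and 107, 105 and 108 CPM with the isotype. NDRG1 had a log2 fold change of 0.32 (SE 0.22, edgeR's adjusted p = 0.688) at 5 µg/ml and of 0.44 (SE 0.21, edgeR's adjusted p = 0.906) at 1.5 µg/ml. SLC2A1 had the opposite sign, with 240, 258 and 254 CPM at 5 µg/ml, 245, 285 and 223 CPM at 1.5 µg/ml, and 358, 266.5 and 317 CPM with the isotype. All 3 libraries at 5 µg/ml lay below the lowest isotype library, while those at 1.5 µg/ml overlapped with the isotype. Its log2 fold changes were -0.32 (SE 0.17, edgeR's adjusted p = 0.583) and -0.32 (SE 0.17, edgeR's adjusted p = 0.927). Neither gene passed the test at either dose.

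CA9 differed most between the antibody doses among the 8 genes. It had 32.3, 29.8 and 34.6 CPM at 5 µg/ml, 52.5, 51.0 and 58.45 CPM at 1.5 µg/ml, and 54.7, 48.3 and 24.8 CPM with the isotype. The groups at 5 and 1.5 µg/ml did not overlap, which held for 10.8% of all genes (5.42% higher and 5.34% lower), and the isotype libraries spanned both. Its log2 fold change, 5 over 1.5 µg/ml, was -0.74 (95% interval -1.46 to -0.02, unadjusted p = 0.0451), and edgeR's adjusted p was 0.857. An unadjusted p under 0.05 was reached by 5.64% of all genes in this comparison, and 0.0111% were called. Of the 8 genes, 3 had a log2 fold change above 0 there (49.5% of all genes). EGLN3 had 50.7, 28.4 and 34.6 CPM at 5 µg/ml, 41.7, 49.8 and 45.9 CPM at 1.5 µg/ml, and 38.3, 23.5 and 30.2 CPM with the isotype. It was above the isotype in all 3 libraries at 1.5 µg/ml (log2 fold change 0.58, SE 0.32, edgeR's adjusted p = 0.933), while those at 5 µg/ml overlapped.

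The remaining tested genes overlapped with the isotype at both antibody doses. PDK1 ranged over 82.9 to 114 CPM at 5 µg/ml, 73.0 to 91.5 CPM at 1.5 µg/ml and 79.3 to 103 CPM with the isotype. BNIP3 ranged over 43.8 to 69.2 CPM at 5 µg/ml, 43.8 to 47.5 CPM at 1.5 µg/ml and 40.0 to 69.7 CPM with the isotype. DDIT4 ranged over 94.5 to 137 CPM at 5 µg/ml, 99.6 to 129 CPM at 1.5 µg/ml and 98.2 to 127 CPM with the isotype. ANKRD37 had at most 10 raw counts in any library of this experiment. The test of whether both agents differed in effect at their higher doses passed in none of the 8 genes (edgeR's adjusted p at least 0.477, with 0.0782% of all genes called), and CA9 had the largest one, 0.98 (SE 0.58). For CA9 it was 0.48 without DMSO replicate 1 and 1.76 without DMSO replicate 2.

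**Figure D3:**
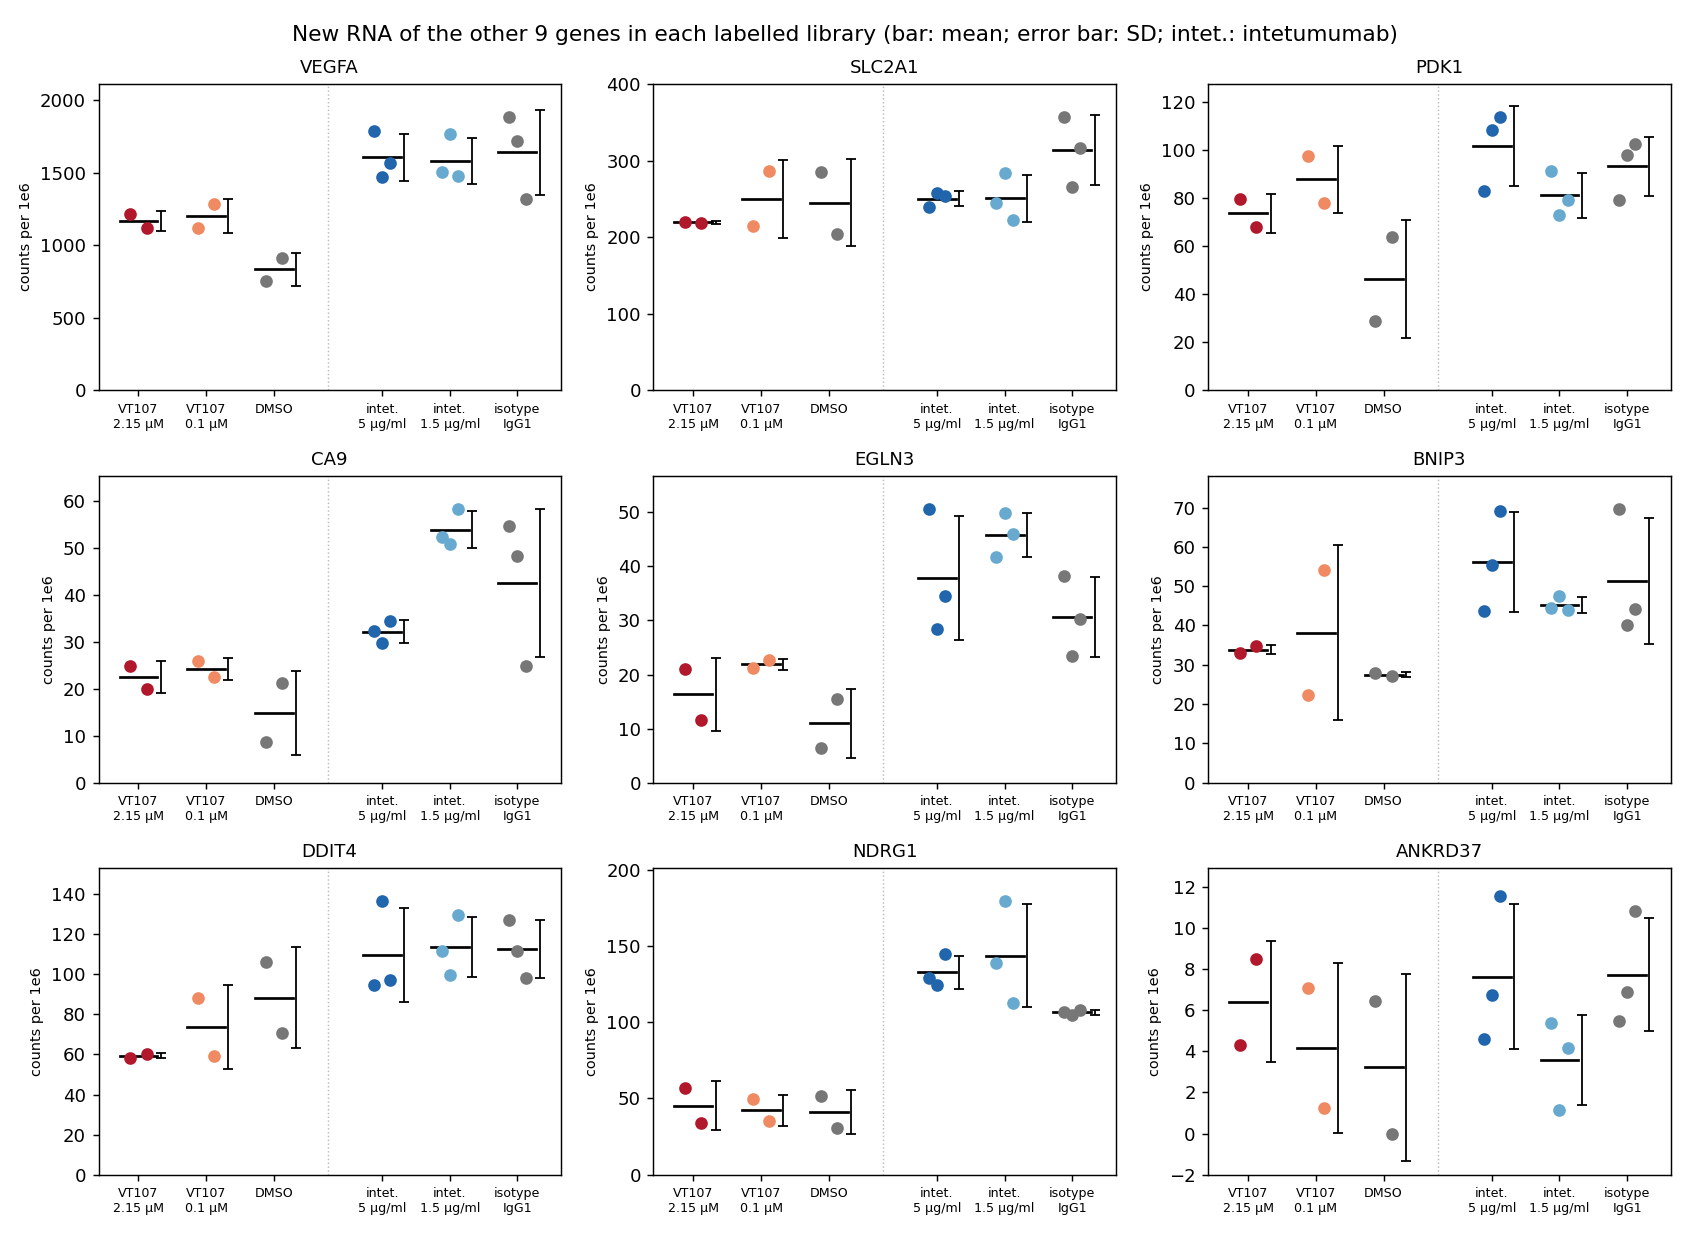
The other 9 genes in each of the 15 labelled libraries, in counts per 1e6 after TMM scaling within each experiment, with an axis of its own for each gene; points are libraries, horizontal bars are means and error bars are SDs (n = 2 per group left of the dotted line, n = 3 right of it). VEGFA and PDK1 lie higher in all 4 VT107 libraries than in DMSO, NDRG1 lies higher in all 6 intetumumab libraries than with the isotype, and the other groups mostly overlap.

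**Figure D4:**
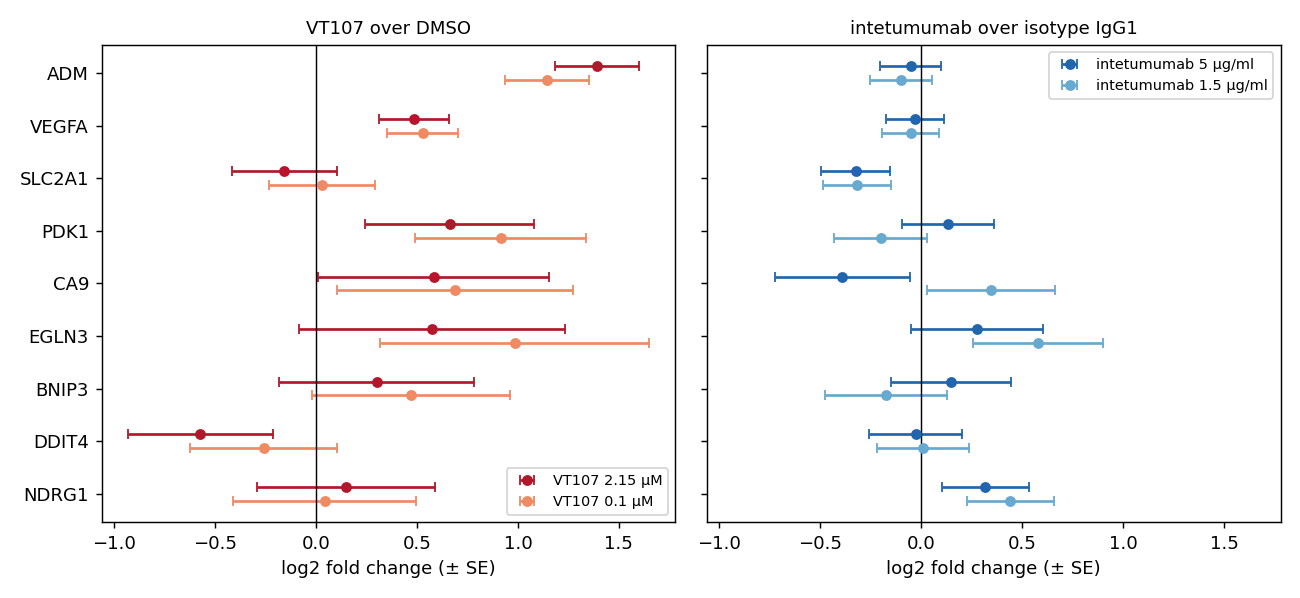
Log2 fold changes of ADM and the 8 tested genes over their own control, with VT107 over DMSO on the left and intetumumab over isotype IgG1 on the right; points are estimates from edgeR and bars are ± 1 SE. ADM lies at 1.39 and 1.14 with VT107 and at -0.05 and -0.10 with intetumumab, and each of the other genes lies below ADM at the same VT107 dose, an order that turns at 0.1 µM without DMSO replicate 2, where PDK1 (1.59), CA9 (1.48) and EGLN3 (1.74) exceed ADM (1.39), and without VT107 0.1 µM replicate 1, where EGLN3 (1.02) exceeds ADM (0.99).

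The controls of the 2 experiments differed in several of these genes, while ADM was close. On 1 common TMM scale over all 15 labelled libraries, ADM had 489 ± 104 CPM in DMSO (SD, n = 2) and 436 ± 6.72 CPM with the isotype (SD, n = 3). NDRG1 had 42.0 ± 15.5 CPM in DMSO and 105 ± 2.20 CPM with the isotype. CA9 had 15.1 ± 8.85 CPM in DMSO and 41.8 ± 15.2 CPM with the isotype, and EGLN3 had 11.1 ± 6.29 CPM in DMSO and 30.1 ± 7.26 CPM with the isotype. These 3 of the 9 genes that passed the filter were at least 2-fold lower in DMSO, and 0 were at least 2-fold higher, where 13.6% of all genes were at least 2-fold lower and 14.2% at least 2-fold higher. Without DMSO replicate 1 the count was 1 (NDRG1, against 16.6% of all genes), and without DMSO replicate 2 it was 4 (VEGFA, PDK1, CA9 and EGLN3, against 19.6%). VEGFA, at 847 ± 103 CPM in DMSO and 1614 ± 278 CPM with the isotype, and PDK1, at 46.9 ± 24.2 CPM in DMSO and 91.7 ± 12.55 CPM with the isotype, were lower in DMSO by less than 2-fold. Experiment and control agent cannot be told apart here, so no test was made. On this scale VEGFA averaged 1189 CPM and ADM 1287 CPM at VT107 2.15 µM. The isotype belongs to the other experiment, so neither level is set against it, and ADM was chosen as higher with VT107.

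The unlabelled libraries show what is counted without thiouridine. ADM had 12 and 4 raw counts there, in the VT107 and the intetumumab experiment, which was 1.08% and 1.30% of its mean labelled count. VEGFA had 7 counts in each, or 0.574% and 0.612%. PDK1 had 4 counts (5.07%) and DDIT4 had 2 (2.50%) in the VT107 experiment, and both had 0 in the other. As a whole, the unlabelled libraries held 0.949% and 0.628% of the mean labelled total, against 1.08% and 1.30% for ADM. These means take in all labelled libraries of an experiment, VT107 ones included, where ADM was higher. In DMSO alone ADM had 376 and 580 raw counts, below its labelled mean of 1110, so 12 counts are a larger share there. The columns of both unlabelled libraries are named as untreated. The other 6 genes had 0 counts in both unlabelled libraries, which allows up to 3 counts, or 1.14% of the labelled mean for SLC2A1 and up to 56.2% for ANKRD37 in the VT107 experiment. With 1 unlabelled library per experiment these values have no replicate check.

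The genes whose pattern was most like that of ADM were sought among the 8847 genes tested in both experiments. Likeness was the root mean square difference in log2(CPM + 1) over the 15 labelled libraries, after each gene was centred on the control libraries of its experiment. The closest gene was ENSG00000168502, with a difference of 0.23, at 371 ± 47.55 CPM with VT107 2.15 µM, 326 ± 46.7 CPM at 0.1 µM and 142 ± 36.95 CPM in DMSO. It had 230 ± 72.6 CPM at intetumumab 5 µg/ml, 247 ± 25.9 CPM at 1.5 µg/ml and 243 ± 9.16 CPM with the isotype. The next was ENSG00000198830, also at 0.23, at 187 ± 19.35 CPM with VT107 2.15 µM, 172 ± 43.8 CPM at 0.1 µM and 85.6 ± 23.9 CPM in DMSO. All its labelled counts were multiples of 2, and it had 342 ± 58.5, 339 ± 49.7 and 312 ± 10.5 CPM at intetumumab 5 µg/ml, 1.5 µg/ml and with the isotype. The median over all genes was 0.84. Among the hypoxia genes PDK1 was closest to ADM, at 0.34 and rank 26 of 8846, followed by VEGFA at 0.45 and rank 210. DDIT4 was the farthest, at 0.91 and rank 5305. Likeness uses the values for which ADM was chosen, and the centring rests on the 2 DMSO libraries. Without DMSO replicate 1 the log2 fold changes of PDK1 at 2.15 and 0.1 µM were 0.21 and 0.46, against 1.18 and 0.92 for ADM. Without DMSO replicate 2 they were 1.35 and 1.59, against 1.65 and 1.39. Ranks of likeness without single libraries were not taken.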

How the data were processed

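The authors deposited raw counts per gene of new transcripts; the series' design text names SLAM DUNK for this step. The build was GRCh38, per the submitters' processing notes. Not given in the sources used here: the T>C threshold, the annotation and what was done with reads matching several genes. All 17 columns were matched to samples by name, and groups follow the agent and dose in the titles.

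Each experiment was fitted on its own, on all its labelled libraries (10083 genes for VT107, 9024 for intetumumab, after filterByExpr with a minimum count of 10), with TMM scaling and the two-sided quasi-likelihood test of edgeR 4.0.16 in R 4.3.3. A joint fit on the 15 labelled libraries gave the test between agents. P-values were adjusted by Benjamini-Hochberg over all genes tested, with a threshold of 0.05, and only rows of the 10 genes are given. SEs come from the fitted weights and the quasi-dispersion. Alternatives used DESeq2 1.42.0, total count scaling, other filters, a replicate block, 1 joint fit, counts divided by their common divisor and each library left out. The common divisor was 1 for all 10 genes. No pair of replicates agreed within sampling noise (chi-square over its degrees of freedom 3.66 to 8.52), so none was treated as a library deposited more than once; this does not show separate cultures.

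All 10 genes are named, as are the 2 genes most like ADM. ADM alone was chosen from measured values, but all members and lists were chosen with earlier results of these data known. The GCGTG motif, the shares, the rank of ADM, the comparison of the controls and the medians without single libraries were added after values were seen. Lists of other HIF genes, of adrenomedullin receptor parts and of cell type markers were not used here, since IDs come without names, and the liver label was not checked for the same reason.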

Additional observations from a re-analysis of the deposited data

Results flagged for a closer look

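Raw counts above the 3 that a count of 0 allows were found in unlabelled libraries, which enter no comparison between groups. In the VT107 experiment these were 12 counts of ADM, 7 of VEGFA and 4 of PDK1. In the intetumumab experiment they were 4 counts of ADM and 7 of VEGFA. Their part in the labelled values was not tested.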

How the results depend on the processing

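None of the 8 tested hypoxia genes other than ADM passed in any comparison under any alternative (0 in all of 11 to 16 per comparison), but DESeq2 gave no adjusted p for 4 of them in each comparison of VT107 with DMSO, where its smallest was 0.136 at 2.15 µM and 0.100 at 0.1 µM, both for VEGFA. Over all genes the counts of calls depended on the setting: 11 genes at VT107 2.15 µM against 245 with DESeq2, and 0 at 0.1 µM against 183. For intetumumab 5 µg/ml they were 8 against 100, and for 1.5 µg/ml 0 against 35. With no filter on low counts, 199 genes were called at VT107 2.15 µM, 171 at 0.1 µM and 13 at intetumumab 5 µg/ml, and 1 fit of all 15 libraries gave 155, 72 and 15. A minimum count of 20 gave 23 at 2.15 µM and 5 at 0.1 µM, and total count scaling gave 5 at 2.15 µM. Between the VT107 doses DESeq2 called 7 genes and the fit with no filter 4, against 0. Between the antibody doses DESeq2 called 4 against 1. For the difference between agents 8 genes were called, against 104 with DESeq2 and 42 with no filter. Leaving out 1 library gave 1 to 26 calls at VT107 2.15 µM (26 without DMSO replicate 2), 0 to 3 at intetumumab 5 µg/ml and 1 to 25 for the difference between agents.

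The log2 fold change of ADM stayed above 0 in all 11 alternatives at each VT107 dose, between 1.18 and 1.65 at 2.15 µM and between 0.92 and 1.39 at 0.1 µM. This sign gives no further support, since ADM was chosen as higher with VT107 and each VT107 library stood above each DMSO library. Total count scaling, which moved the median of all genes at 2.15 µM to 0.18 on the log2 scale from 0.03, gave ADM 1.55. The mean of ADM with the isotype was 430 counts per 1e6 of the library total, against 444 CPM after TMM, and in the other 5 groups this scale moved the mean by less than 1 SD. Per 1e6 counts of its own library, ADM in the unlabelled libraries was at 119% of the labelled mean (VT107 experiment) and 208% (intetumumab experiment), where raw counts gave 1.08% and 1.30%. In the VT107 experiment that mean includes the VT107 libraries. Per 1e6 of the library total, ADM had 1121 in its unlabelled library, and 375 and 526 in DMSO.

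With the replicate number as a block, 0 of the 8 genes passed in each comparison, ADM was at 1.40 and 1.16 on the log2 scale over DMSO, and over all genes 5 passed at VT107 2.15 µM, 1 at intetumumab 5 µg/ml and 4 for the difference between agents. Deviations of same-numbered libraries correlated between -0.053 and -0.009 in the VT107 experiment and between -0.013 and 0.189 in the other. No such value was taken for libraries of different numbers, so whether same-numbered libraries share a culture or batch cannot be told. Low counts limit CA9, EGLN3, BNIP3 and ANKRD37 most.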
